A study of Mus musculus with 24 samples.

Results

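Ventral telencephalon and interneuron genes were followed in the developing mouse cortex and in cells cultured from it. The set holds 8 genes of the 54658 in the table, matched by symbol and grouped for their known place in ventral progenitors and GABAergic interneurons. They are the distal-less homeobox genes *Dlx1*, *Dlx2* and *Dlx5*, the homeobox genes *Nkx2-1*, *Lhx6* and *Gsx2*, and *Gad1* and *Gad2*, which encode the enzymes that make GABA from glutamate. Of the 8, 7 had a mean of at least 10 in every comparison and were tested, and *Gsx2* never did.

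GABAergic neurons of the cortex are not born in the cortex. They arise in the ganglionic eminences of the ventral telencephalon, where Gsx2 marks progenitors of the lateral eminence and Nkx2-1 sets the identity of the medial one, and they reach the dorsal telencephalon by tangential migration. Dlx factors act in progenitors and precursors of nearly all of these neurons, Lhx6 acts below Nkx2-1 in the cells of the medial eminence, and precursors bound for the cortex switch *Nkx2-1* off as they leave.

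The study asked what loss of CEP135, a centriole protein whose gene is mutated in a form of primary microcephaly, does to neural progenitors. Dorsal telencephalon came from *Cep135*(Δ8/Δ8) embryos, given as *Cep135* (-/-) in the labels and called mutants here, and from *Cep135*(+/+) embryos, called controls, all from matings between heterozygotes. The Δ8 allele was made by CRISPR/Cas9 in zygotes and is carried by every cell of the embryo, so no promoter or cell type limits the loss. There were 3 mutants (A, B and C) and 3 controls (D, E and F) at E11.5, and 3 mutants (1, 2 and 6) and 3 controls (3, 4 and 5) at E14.5, with 1 library per embryo. No agent was given to any group. For the cultures, cortical progenitors of the same 6 E14.5 embryos were dissociated with papain and grown in suspension with EGF and FGF2 as incipient neurospheres for 12 or 24 hours, so each E14.5 embryo gave 3 libraries. The labels of mutant 6 give both ages for its cortex, and it was taken as E14.5 after its title. All E14.5 embryos share 1 title prefix and the E11.5 embryos have 2 others (A and D against B, C, E and F), so age and whatever the prefix stands for cannot be told apart.

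Libraries were primed at the polyA tail and read on 1 strand. The values are normalized read counts, which are reads per gene divided by 1 size factor per library, and the libraries held 4732781 to 11645213 reads on genes. They reflect the amount of a gene's polyadenylated transcripts, read near the 3′ tail, and 1 gene's level is not compared with that of another. *Cep135* checks the labels only weakly, because a small deletion in the second exon leaves 3′ reads in place: at E11.5 it read 293, 375 and 318 in controls (D, E, F) against 246, 336 and 329 in mutants (A, B, C). The dorsal marker *Emx1* was present in all 12 cortices, from 117 to 327. Of 11 liver genes, the summed count was 127 to 1584 in 12 libraries (mutants A and C, the cortices of controls 4 and 5, all 12-hour cultures but that of control 3, and the 3 mutant 24-hour cultures) and at most 15.6 in the other 12. *Gm42418*, a ribosomal RNA gene, took 6.11% to 34.8% of reads. At 24 hours its share was 20.5% to 23% in mutants and 6.26% to 13.9% in controls, and the mutant libraries were all deeper. By *Xist* and Y-linked transcripts, mutants 1 and 2 were female, and mutant 6 and controls 3, 4 and 5 were male. Sex and genotype were therefore largely tied at E14.5 and in both cultures.

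*Dlx1* (chr2:71528113-71533981, plus strand) and *Dlx2* (chr2:71543408-71546754, minus strand) lie 9426 bases apart on GRCm38, and *Gad1* (chr2:70553072-70602014, plus strand) ends 926098 bases before *Dlx1*. *Gad2* (chr2:22622205-22693874, plus strand) and *Lhx6* (chr2:36081953-36105408, minus strand) are on the same chromosome, so 5 of the 8 genes are on chromosome 2. *Dlx5* (chr6:6877805-6882085, minus strand) lies 9236 bases from *Dlx6*, *Nkx2-1* is at chr12:56531958-56536908 (minus strand), and *Gsx2* (chr5:75075601-75077893, plus strand) lies 1510805 bases before *Cep135* on the chromosome that carries the targeted allele. *Dlx1*, *Gad1* and *Nkx2-1* overlap antisense genes (*Dlx1as*, *Gad1os* and *Gm26973*), which counting by strand keeps apart. *Gad2* and *Lhx6* overlap small RNA genes on their own strand (*Mir3967* and *Gm23636*, and *Gm27953*). The sequences before the RefSeq starts (GRCm38.p6) of *Gad2*, *Lhx6* and *Gad1* are shown, because *Gad2* and *Lhx6* are the genes whose E11.5 groups were apart and because *Gad1* and *Gad2*, which make the same product, are set against each other below. They are read 5′ to 3′ on the strand of the gene and stop where an annotated exon begins, and capitals mark a motif match.
Gad2 chr2:22622077-22622204, plus strand: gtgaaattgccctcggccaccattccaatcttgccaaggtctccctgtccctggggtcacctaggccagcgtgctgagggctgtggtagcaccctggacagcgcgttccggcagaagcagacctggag
Lhx6 chr2:36105409-36105658, minus strand: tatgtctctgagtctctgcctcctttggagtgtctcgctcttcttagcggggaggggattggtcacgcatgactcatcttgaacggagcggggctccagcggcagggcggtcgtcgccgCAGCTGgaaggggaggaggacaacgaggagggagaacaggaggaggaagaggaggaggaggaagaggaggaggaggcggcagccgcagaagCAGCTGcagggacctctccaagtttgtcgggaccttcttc
Gad1 chr2:70561879-70562041, plus strand: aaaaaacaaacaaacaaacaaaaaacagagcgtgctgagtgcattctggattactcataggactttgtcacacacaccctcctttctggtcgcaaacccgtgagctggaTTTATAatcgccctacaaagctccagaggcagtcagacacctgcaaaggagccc

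The *Gad1* window lies inside the longest annotated gene model and outside its exons. The motifs were searched on both strands, TAATTA (a core bound by homeodomain proteins such as the Dlx factors), CAGCTG (an E-box bound by bHLH proteins) and TATAAA (the TATA box), and none of them overlaps another in these windows. In windows of 250 bases before the start of all promoters in the table (32851 windows), 4.84% held TAATTA, 13% CAGCTG and 12.4% TATAAA. The *Lhx6* window shown held CAGCTG in 2 places, while the windows of its other RefSeq starts held none. The *Gad1* window held TATAAA once, on the opposite strand (read as TTTATA), and the *Gad2* window held none of the motifs. TAATTA was in none of the 9 windows found for *Dlx1*, *Dlx2*, *Gad1*, *Gad2*, *Lhx6*, *Nkx2-1* and *Gsx2*, which says only that these letters are not in these windows. *Dlx5* was not matched.

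**Figure D1:**
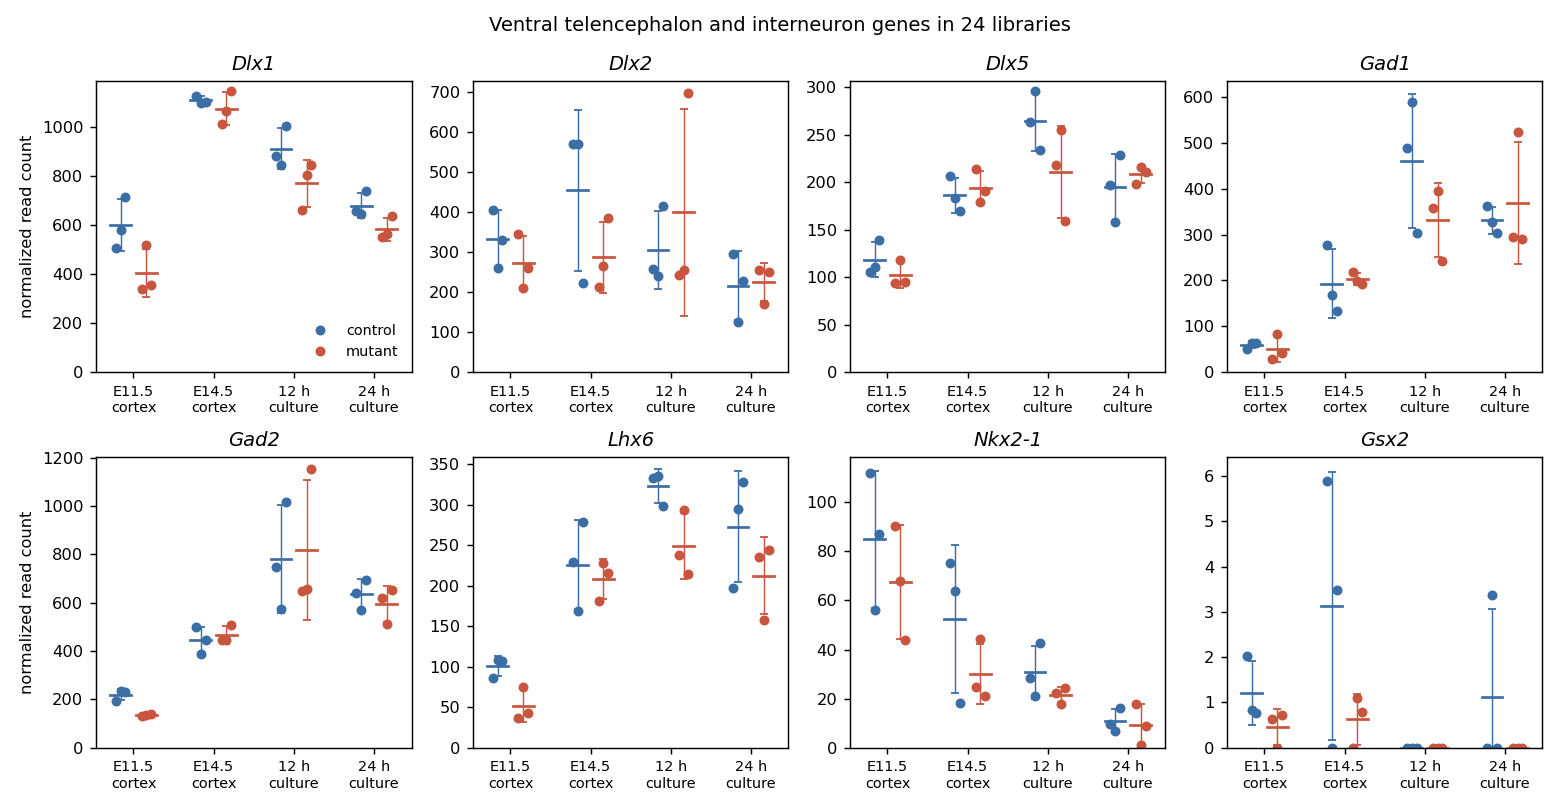
Normalized read count (linear axis from 0) of each of the 8 genes in the 24 libraries, by age or culture time. Points are libraries, blue for control and red for mutant, long bars are means and thin bars the SD over 3 libraries, cut at 0. *Gad2* and *Lhx6* sit lower in all 3 mutants than in all 3 controls at E11.5, *Gad1*, *Gad2* and *Lhx6* are higher at E14.5 than at E11.5 in every embryo, and *Nkx2-1* has its lowest median at 24 hours.

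At E11.5, each of the 7 tested genes had a lower mean in mutant than in control cortex, and none passed the test. With limma across 13406 genes, 0 of the 7 had an adjusted p under 0.05, where 0.0149% of all genes did. At an unadjusted p under 0.05 there were 3, *Dlx1*, *Gad2* and *Lhx6*, beside 991 of the 13406 genes. The groups did not overlap for 2 of the 7, both lower in mutants, beside 13.3% of all genes in either direction. The median log2 fold change of the 7 was -0.37, against 0.02 over all genes. In bulk tissue, fewer cells of a type, less RNA per cell and less ventral tissue in the dissected sample cannot be told apart. Other genes of ventral lineages were read in every E11.5 cortex, *Isl1* at 148 to 327 and *Lhx8* at 54.1 to 122.

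*Gad2*, which encodes the GABA-making enzyme of nerve endings, read 192, 237 and 230 in controls (D, E, F) against 130, 136 and 140 in mutants (A, B, C). All mutants were below all controls, and the mutants lay closer together (SD 4.83, n = 3) than the controls (SD 23.8, n = 3). The log2 fold change was -0.69 ± 0.14 (SE, n = 3 against 3; limma, adjusted p = 0.303; exact permutation p = 0.1, the smallest that 20 permutations allow). *Lhx6*, which directs the migration and fate of interneurons from the medial eminence, read 86.7, 108 and 107 in controls (D, E, F) against 36.8, 74.7 and 43.3 in mutants (A, B, C). Its groups did not overlap either, with B nearest to the controls. The log2 fold change was -1.01 ± 0.26 (limma, adjusted p = 0.532; exact permutation p = 0.1).

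*Dlx1* read 506, 580 and 717 in controls (D, E, F) against 341, 520 and 357 in mutants (A, B, C). Here mutant B exceeded control D, so the groups overlapped, and the log2 fold change was -0.58 ± 0.18 (limma, adjusted p = 0.601). *Dlx2*, the neighbour of *Dlx1* with a like role in progenitors, had a log2 fold change of -0.29 ± 0.20. *Dlx5*, which acts later in the same lineage, stood at -0.21 ± 0.18. *Gad1* was spread most among mutants, with 27.7, 82.5 and 41.1 in A, B and C against 50.4, 64.4 and 63.7 in D, E and F. Mutant B was the highest of all 6 for *Gad1*, and A and C were the lowest. *Nkx2-1* overlapped between groups (44.0 to 90.3 in mutants, 56.0 to 112 in controls).

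Mutants A and C, which were lowest for *Dlx1*, *Lhx6* and *Gad1*, were also the E11.5 cortices with liver transcripts (summed counts of 213 and 901, against 15.6 in mutant B and 5.44 to 14.2 in controls) and were both female, as was control E. All 11 liver genes were above 0 in at least 1 mutant, and 7 of them were at 0 in all 3 controls. With the liver sum as a term, the log2 fold change was -0.70 for *Gad2*, -0.45 for *Lhx6* and -0.15 for *Dlx1*. With sex as a term they were -0.72, -0.89 and -0.47. By title prefix, *Gad2* was 130 in mutant A against 192 in control D, and 136 and 140 in mutants B and C against 237 and 230 in controls E and F. *Lhx6* was 36.8 against 86.7 in the first pair, and 74.7 and 43.3 against 108 and 107 in the other embryos. Both genes were lower in mutants within each prefix, but this had to follow from groups that did not overlap and adds no support. Genes of neighbouring forebrain regions summed to 2613 to 2807 in mutants and 2112 to 2351 in controls, and none of the 7 tested passed. The part of these measures in the results was not tested.

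Among related genes, 15 of 16 genes of GABAergic precursors and migrating interneurons were tested at E11.5. None passed in either direction, 2 had an unadjusted p under 0.05, 11 had a lower mean in mutants, and their median log2 fold change was -0.19. Of 5 tested ventral progenitor factors 4 were lower and 1 higher, with a median of -0.17. The 8 tested striatal lineage genes split, with 4 lower and 4 higher and a median of 0.02. None of either list passed. *Dlx6os1*, an RNA transcribed across the *Dlx5* and *Dlx6* locus, read 252, 268 and 274 in controls (D, E, F) against 161, 180 and 143 in mutants (A, B, C). These groups did not overlap, with a log2 fold change of -0.72 ± 0.14 (limma, adjusted p = 0.259), and the symbol covers more than 1 annotated gene, which leaves its counting uncertain. Of 6 genes that handle GABA or encode interneuron peptides and calcium-binding proteins, 5 were lower in mean and none passed. *Slc32a1*, the vesicular GABA transporter, stood at -0.66 ± 0.23 and *Npy*, a peptide of interneurons, at -0.95 ± 0.34. The 9 dorsal genes were also all lower in mean, none past the test, and the median was -0.20 on the log2 scale. *Lhx2* stood at -0.42 ± 0.13. Of 6 glutamatergic neuron genes 5 were lower in mean and none passed, with a median log2 fold change of -0.45. *Neurod2* stood at -1.08 ± 0.20, with groups that did not overlap, and *Neurod6* at -1.51 ± 0.52. Of 5 microglial genes 4 were higher in mean and none passed, with a median of 0.56. *Cx3cr1* stood at 0.72 ± 0.16 and *C1qa* at 0.73 ± 0.29, both with groups that did not overlap.

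**Figure D2:**
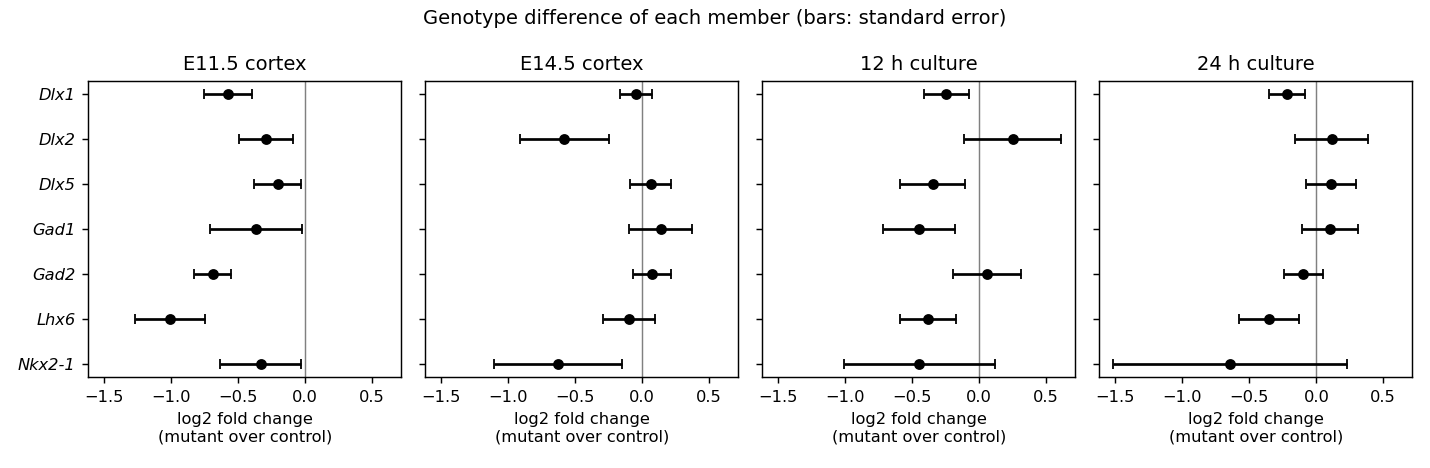
Log2 fold change of mutant over control (x axis) for the 7 tested genes in E11.5 cortex, E14.5 cortex, 12-hour and 24-hour culture. Points are limma estimates and bars their SE (3 libraries against 3). All 7 estimates are below 0 at E11.5, from -0.21 for *Dlx5* to -1.01 for *Lhx6*, and lie on both sides of 0 in the other panels. No point has an adjusted p under 0.05.

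At E14.5 the same genes showed no difference past the test and no groups that were apart. With limma, 0 of the 7 had an adjusted p under 0.05 (0.0736% of 13583 genes), 0 had an unadjusted p under 0.05, and edgeR and DESeq2 also called 0. None of the 7 had groups that did not overlap, beside 13.7% of all genes. *Gad2* read 498, 390 and 445 in controls (3, 4, 5) against 447, 444 and 507 in mutants (1, 2, 6). The genotypes overlapped, with control 4 the lowest and mutant 6 the highest of the 6. The log2 fold change of 0.07 had an approximate interval of -0.20 to 0.35. Here and below, intervals of fold changes rest on the SE and a normal quantile and are narrower than limma's 95% intervals. *Lhx6* read 229, 169 and 279 in controls against 181, 227 and 216 in mutants, with a log2 fold change of -0.09 and an interval of -0.48 to 0.29. *Dlx1* was tight, at 1129, 1100 and 1105 in controls against 1013, 1069 and 1148 in mutants, with an interval of -0.28 to 0.18.

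*Dlx2* and *Nkx2-1* were widely spread at E14.5 in both genotypes (SD of 199.96 in controls and 88.4 in mutants for *Dlx2*, and of 30.1 and 12.4 for *Nkx2-1*, n = 3 each). *Dlx2* read 568 and 569 in controls 3 and 4 but 222 in control 5, and 211, 264 and 384 in mutants 1, 2 and 6. *Nkx2-1* split the same way, with 75.3 and 63.9 in controls 3 and 4, 18.3 in control 5, and 24.8, 44.2 and 21.1 in mutants 1, 2 and 6. Controls 3 and 4 were thus above every other E14.5 cortex for both genes, while control 5 was low in both. The log2 fold changes were -0.58 ± 0.33 for *Dlx2* (limma, adjusted p = 0.608) and -0.63 ± 0.48 for *Nkx2-1* (limma, adjusted p = 0.695). Without control 5 they were -1.03 and -1.25, and neither passed. *Gad1* ranged from 133 in control 5 to 278 in control 3, with the mutants at 193 to 218. The liver sums were 10.6, 1059 and 1137 in controls 3, 4 and 5. Transcripts of 5 microglial genes summed to 724 to 892 in mutants and 379 to 443 in controls. The part of either, or of the amount of ventral tissue in each sample, in these values was not tested.

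Related genes at E14.5 gave no call in the lists of ventral progenitors, GABAergic precursors, striatal lineage or GABA handling. *Olig2*, a bHLH factor of ventral progenitors, stood at 0.52 ± 0.22 (limma, adjusted p = 0.513), *Maf* at -0.50 ± 0.20 and *Npy* at -0.40 ± 0.15. Outside those lists, *Neurod6*, a bHLH factor of cortical glutamatergic neurons, fell in mutants by 0.87 on the log2 scale (limma, adjusted p = 0.0481), and it was the 1 of 6 glutamatergic genes past the test.

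In the 12 cortices together, with age as a term, 0 of the 7 genes passed with limma (0.139% of 13650 genes), and 3 had an unadjusted p under 0.05, beside 1189 of all genes. The log2 fold changes were -0.55 ± 0.20 for *Lhx6* (limma, adjusted p = 0.446; exact permutation p = 0.055), -0.31 ± 0.13 for *Dlx1* and -0.31 ± 0.13 for *Gad2*. None of the 7 was apart between genotypes at both ages, beside 1.33% of all genes. The change of the genotype difference between ages was tested as an interaction. None of the 7 passed, and none of the 13650 genes did (0%), while 3 of the 7 and 1070 of all genes had an unadjusted p under 0.05. The signed log2 fold change at E14.5 minus that at E11.5 was 0.76 ± 0.19 for *Gad2* (limma, adjusted p = 0.521), 0.91 ± 0.34 for *Lhx6* and 0.53 ± 0.22 for *Dlx1*, each being further below 0 at E11.5. These comparisons use the same cortices as the ones at each age and add no new embryos.

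After 12 hours in culture, no gene of the table passed between genotypes with limma (0% of 13389 genes). None of the 7 had an unadjusted p under 0.05, and edgeR and DESeq2 also called 0 of them. The groups were apart for 2 of the 7, *Dlx1* and *Lhx6*, both lower in mutants, beside 11% of all genes. *Dlx1* read 882, 848 and 1007 in controls (3, 4, 5) against 664, 806 and 846 in mutants (1, 2, 6). The highest mutant lay just under the lowest control, with a log2 fold change of -0.24 ± 0.17. *Lhx6* read 333, 336 and 298 in controls against 238, 294 and 215 in mutants, with a log2 fold change of -0.38 ± 0.21 (limma, adjusted p = 0.913). Genes of neighbouring forebrain regions (hem, choroid plexus, diencephalon and septum) summed to 6122 to 16966 in mutant and 2375 to 4274 in control 12-hour cultures. Only 4 of these 8 genes were tested, all with estimates above 0 and none past the test. Such a sum can rest on 1 gene and does not show that each region differed. After 24 hours, 0 of the 7 passed with limma (0.271% of 13300 genes), 0 had an unadjusted p under 0.05, and edgeR and DESeq2 called 0. *Dlx1* was again apart, the 1 of 7 beside 16.2% of all genes, at 657, 645 and 740 in controls against 552, 564 and 638 in mutants (log2 fold change -0.22 ± 0.13). *Lhx6* overlapped, at 197, 295 and 328 in controls against 235, 158 and 244 in mutants. The *Gm42418* share and depth differed between genotypes at 24 hours (values above). With that share as a term the *Dlx1* difference was 0.00023 on the log2 scale. The genes of neighbouring regions summed to 5923 to 17560 in mutant and 1838 to 4095 in control 24-hour cultures, where 1 of the 4 tested passed, higher in mutants. The part of these sums in the results at either time was not tested.

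Within the 12-hour cultures, 2 libraries stood out, the culture of mutant 6 and that of control 5. *Gad2* was 1153 and 1017 in these and 573 to 749 in the other 4. *Dlx2* was 698 and 415, against 240 to 258 in the others. *Gad1* went the other way, at 242 and 303, the lowest of the 6, against 359 to 589 in the others. Both enzymes of GABA synthesis were therefore at opposite ends in the same cultures, in 1 mutant and in 1 control. Their liver sums (1083 and 1133) and *Gm42418* shares (32.7% and 10.7%) are set beside these values: the other 4 had liver sums of 1.57 to 1584 and shares of 18.9% to 34.8%, so the share of control 5 was the lowest of the 6 and that of mutant 6 the highest but one. Their part in these values was not tested.

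In related lists at 12 hours none of the 16 genes of GABAergic precursors passed, with *Dlx6os1* at -0.42 ± 0.16 (limma, adjusted p = 0.913), and *Npy* stood at -0.79 ± 0.26. At 24 hours *Sst*, the peptide of many Lhx6-lineage interneurons, stood at -0.77 ± 0.19 (limma, adjusted p = 0.109) and *Npy* at -0.51 ± 0.20, with *Prox1* at 0.47 ± 0.17. *Neurod6* fell in mutants by 0.71 on the log2 scale at 24 hours (limma, adjusted p = 0.0425). The genotype difference in cultures was compared with that in the E14.5 cortex and between culture times. With limma 0 of the 7 passed in each of these 3 interactions, as did 0 of all genes tested (0%), and 0 of the 7 had an unadjusted p under 0.05.

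Between E11.5 and E14.5 most of these genes rose. With genotype as a term, 5 of the 7 were higher at E14.5 (23.8% of 13650 genes were) and 1 was lower (29.3% of genes were). *Gad1* rose most, by 1.87 ± 0.23 on the log2 scale (limma, adjusted p = 4.77e-06), from 27.7 to 82.5 (median 57.1) at E11.5 to 133 to 278 (median 195) at E14.5. *Lhx6* rose by 1.59 ± 0.20, from a median of 80.7 (36.8 to 108) to 222 (169 to 279). *Gad2* rose by 1.39 ± 0.13, from a median of 166 (130 to 237) to 446 (390 to 507). *Dlx1* rose by 1.16 ± 0.13 and *Dlx5* by 0.79 ± 0.12. For these 5 every E14.5 cortex was above every E11.5 cortex, and the exact permutation p was 0.005, the smallest that 400 permutations within genotype allow.

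*Nkx2-1* fell by 1.004 on the log2 scale (limma, adjusted p = 0.0134), from a median of 77.5 (44.0 to 112) to 34.5 (18.3 to 75.3). Its ages overlapped through controls 3 and 4 and mutant 2 at E14.5, and the call was lost with all 24 libraries in 1 fit (limma, adjusted p = 0.0641). *Dlx2* stood at 0.20 ± 0.22, with an interval of -0.23 to 0.64. Within the *Dlx1* and *Dlx2* pair, the E14.5 cortices ran from 1013 to 1148 for *Dlx1* and from 211 to 569 for *Dlx2*. *Dlx1* and *Lhx6* thus rose with age while *Nkx2-1*, which acts above *Lhx6*, fell.

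The related lists moved in parts with age. Of 5 tested ventral progenitor factors, 3 fell and 0 rose, among them *Olig2* by 1.23 and *Nkx6-2* by 1.54 on the log2 scale. Of 15 tested genes of GABAergic precursors, 8 rose and 1 fell. *Erbb4* rose by 1.53 ± 0.17, *Dlx6os1* by 1.38 ± 0.12 and *Dlx6* by 1.17 ± 0.15. All 6 genes of GABA handling and interneuron peptides rose, *Sst* by 5.14 ± 0.38, *Npy* by 3.22 ± 0.18 and *Slc32a1* by 1.41 ± 0.14. The median log2 fold change was 1.16 for the 7 genes, 1.66 for these 6, -1.23 for the ventral progenitor factors and -0.08 for all genes. Dorsal genes split, with 5 higher and 4 lower of 9, and *Eomes* and *Tbr1* rose by 1.47 and 1.29. Of 6 glutamatergic neuron genes 5 rose and 0 fell, with a median of 1.95, and *Neurod6* rose by 6.11 and *Neurod2* by 4.58. Of the 10 striatal lineage genes 5 rose, among them *Drd1* by 4.70, *Meis2* by 1.17 and *Ebf1* by 1.05, and 2 fell, among them *Six3*.

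**Figure D3:**
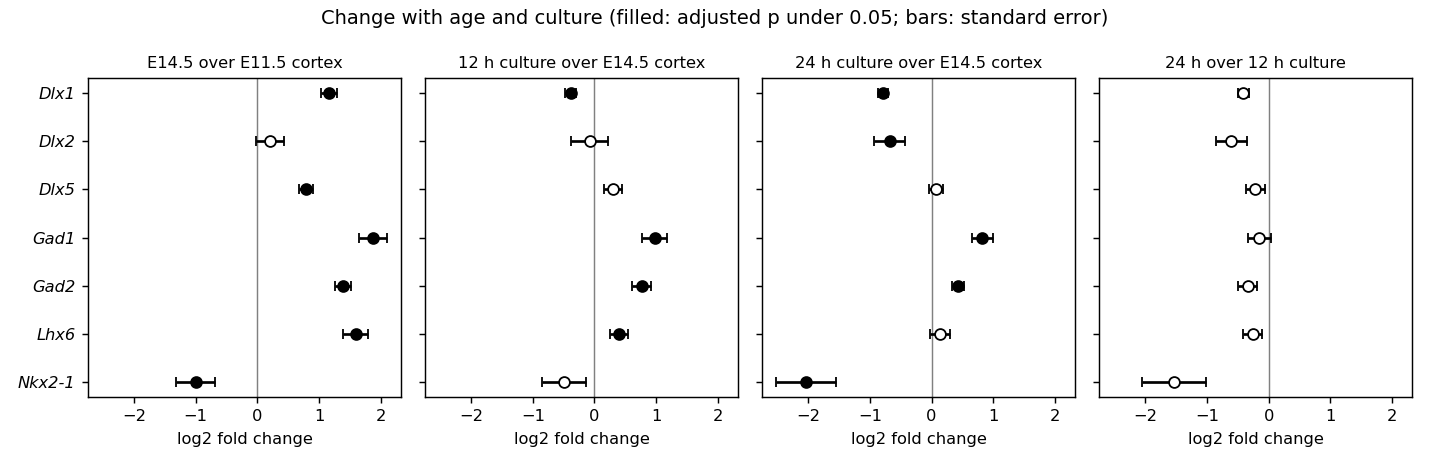
Log2 fold change (x axis) of the 7 tested genes between ages, between culture and E14.5 cortex, and between culture times. Points are limma estimates, filled where the adjusted p is under 0.05, and bars are SE (6 libraries against 6). *Gad1*, *Gad2* and *Lhx6* are filled and above 0 with age and at 12 hours, *Nkx2-1* is filled and below 0 with age and at 24 hours, and no point is filled between 12 and 24 hours.

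In culture the GABA-synthesis genes rose while *Dlx1* fell. Compared with E14.5 cortex, 3 of the 7 genes were higher after 12 hours (14.1% of 13601 genes were) and 1 was lower (16.1% of genes were). *Gad1* rose by 0.97 ± 0.21 on the log2 scale (limma, adjusted p = 0.00234), from a median of 195 to 377 (242 to 589). *Gad2* rose by 0.77 ± 0.16 (limma, adjusted p = 0.00174), from a median of 446 to 702 (573 to 1153). *Lhx6* rose by 0.40 ± 0.14 (limma, adjusted p = 0.0457), but with the embryo as a block the adjusted p was 0.06, and leaving out 1 library lost the call for 9 of the 12, all but the cortices of control 5 and mutant 2 and the culture of mutant 6 (adjusted p of 0.0203 to 0.12 over the 12). *Dlx1* fell by 0.39 ± 0.09 on the log2 scale (limma, adjusted p = 0.00533), from a median of 1102 to 847 (664 to 1007). *Dlx5*, at 0.30 ± 0.15, *Dlx2* and *Nkx2-1* did not pass. With the *Gm42418* share as a term, which was 9.78% to 15.0% in these cortices and 10.7% to 34.8% in the cultures, *Gad2* still passed (log2 fold change 0.92) and the others did not. The log2 fold change was then -0.34 for *Dlx1* (limma, adjusted p = 0.0972), 0.65 for *Gad1* (adjusted p = 0.13) and 0.40 for *Lhx6* (adjusted p = 0.204), so those of *Dlx1* and *Lhx6* moved little.

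After 24 hours, 2 of the 7 were higher than in the E14.5 cortex (20.1% of 13579 genes were) and 3 were lower (21.5% of genes were). *Gad1* was higher by 0.83 ± 0.17 and *Gad2* by 0.43 ± 0.10 on the log2 scale (limma, adjusted p = 0.000873 and 0.00211). *Dlx1* fell by 0.79 ± 0.08, to a median of 642 (552 to 740; limma, adjusted p = 7.89e-07). *Nkx2-1* fell by 2.03 ± 0.48, to a median of 9.14 (1.01 to 17.9; limma, adjusted p = 0.00274). Its 24-hour values lay below every E14.5 cortex, the lowest of which was 18.3. *Dlx2* fell by 0.68 ± 0.25 (limma, adjusted p = 0.0379), a call lost without the cortex of control 3, control 4 or mutant 6 or the culture of control 4, control 5 or mutant 2 (adjusted p of 0.0105 to 0.1 over the 12 libraries left out in turn) and with DESeq2 (adjusted p = 0.0614). *Lhx6*, at 0.14 ± 0.16, and *Dlx5*, at 0.08 ± 0.11, did not pass. The comparisons at 12 and 24 hours share the 6 cortices.

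The cultures differed from the cortex in other markers too. Dorsal genes fell, 5 of 9 at 12 hours and 6 of 9 at 24 hours with none higher. The log2 fold changes at these times were -1.11 and -1.28 for *Emx1*, -0.92 and -1.40 for *Pax6* and -0.70 and -1.46 for *Neurog2*, while *Tbr1* stood at -0.01 at both. Of 3 tested ventral progenitor factors, *Olig1* and *Olig2* rose at both times, *Olig1* by 2.29 at 12 hours and 4.45 at 24 hours and *Olig2* by 1.58 and 2.71. *Slc32a1* rose by 0.63 and 0.57, as the Gad genes did. *Calb2* fell (log2 fold changes -1.30 and -1.48), and *Sst* fell by 0.52 at 12 hours. Of 16 GABAergic precursor genes at 12 hours, 4 rose and 4 fell (*Dlx6os1* by 0.57 and *Maf* by 0.76 upward, and *Nr2f2* downward by 0.72). At 24 hours 2 rose and 6 fell of 15. Red cell transcripts summed to 15792 to 19987 in E14.5 cortices, 32442 to 65933 at 12 hours, where 4 of 5 genes were called higher, and 19313 to 35548 at 24 hours, while those of 5 endothelial genes went from 793 to 933 to between 11.3 and 102. The part of these shifts in the results for the 7 genes was not tested.

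**Figure D4:**
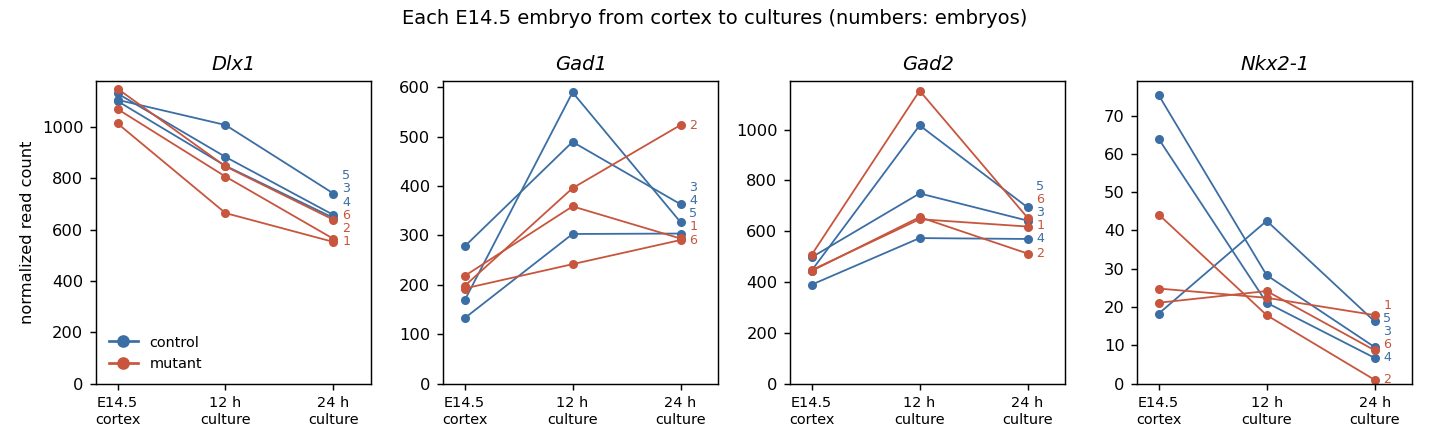
Normalized read count (linear axis from 0) of *Dlx1*, *Gad1*, *Gad2* and *Nkx2-1* in each E14.5 embryo, from cortex through 12 and 24 hours of culture. Lines join libraries of 1 embryo, blue for the 3 controls and red for the 3 mutants, with the embryo's number at the right. *Dlx1* falls along all 6 lines, *Gad2* peaks at 12 hours in all 6, and *Nkx2-1* rises at 12 hours in control 5 and mutant 6, falls in the other 4, and ends below the cortex in all 6.

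Followed by embryo, *Dlx1* was lower at 12 hours than in the cortex in 6 of 6 embryos and lower again at 24 hours in 6 of 6. *Gad2* was higher at 12 hours in 6 of 6, and lower at 24 than at 12 hours in 6 of 6, though still above the cortex in 6 of 6. In control 4 that last step was small, from 573 to 570. *Gad1* was above the cortex at both times in 6 of 6, and its step from 12 to 24 hours went up in 3 embryos and down in 3. *Nkx2-1* rose at 12 hours in control 5 (18.3 to 42.5) and mutant 6 (21.1 to 24.2), the embryos with the lowest cortex values, and fell in the other 4. By 24 hours it was below the cortex in 6 of 6. *Lhx6* was higher at 12 hours in 5 of 6 and *Dlx5* in 5 of 6.

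Between 12 and 24 hours, 0 of the 7 genes passed with limma (0.15% of 13359 genes were higher and 0.142% lower), and all 7 estimates were below 0. At an unadjusted p under 0.05 there were 4, *Dlx1*, *Dlx2*, *Gad2* and *Nkx2-1*, beside 1288 of all genes, while edgeR called 0 and DESeq2 called 1. *Dlx1* stood at -0.41 ± 0.10 on the log2 scale (limma, adjusted p = 0.0863). With the embryo as a block it passed (limma, adjusted p = 0.035), as it did with DESeq2 (adjusted p = 0.00479), and every 24-hour culture was below every 12-hour culture of its genotype. *Nkx2-1* stood at -1.54 ± 0.52 (limma, adjusted p = 0.3) and *Gad2* at -0.34 ± 0.15. Among related genes *Olig1* rose by 2.16 (limma, adjusted p = 2.17e-08) and *Neurog2* fell by 0.77 on the log2 scale (limma, adjusted p = 0.034).

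Over the 4 conditions, *Gad1* and *Gad2* had the same order of medians, from 12-hour culture through 24-hour culture and E14.5 cortex to E11.5 cortex. For both, the range of the E14.5 cortices was clear of the E11.5 cortices and of the 24-hour cultures, and the culture times overlapped. *Lhx6* and *Dlx5* had the same order too, but only the step from E11.5 to E14.5 cortex was clear of overlap. *Dlx1* was ordered E14.5 cortex, 12-hour culture, 24-hour culture, E11.5 cortex, with the E14.5 cortices above all 12-hour cultures and the lower neighbours overlapping. *Dlx2* overlapped at each step of its order. *Nkx2-1* was ordered E11.5 cortex, E14.5 cortex, 12-hour culture, 24-hour culture and overlapped at each step, the last by little (17.9 at most at 24 hours, 17.9 at least at 12 hours).

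The 7 genes did not vary as one from library to library. Deviations from the 8 group means were correlated over the 24 libraries as a description, where libraries of 1 embryo, size factors and depth are shared. Pearson's r was above 0 in 15 of 21 pairs, with -0.44 the lowest, 0.14 the median and 0.64 the highest. *Gad1* and *Gad2* had r = -0.40, although both rose with age and in culture. *Gad1* went with *Dlx5* (0.64), and *Gad2* with *Dlx2* (0.60) and *Dlx1* (0.49). The neighbours *Dlx1* and *Dlx2* had r = 0.14, *Dlx2* and *Nkx2-1* 0.57, *Dlx1* and *Lhx6* 0.55, and *Lhx6* and *Nkx2-1* 0.09.

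**Figure D5:**
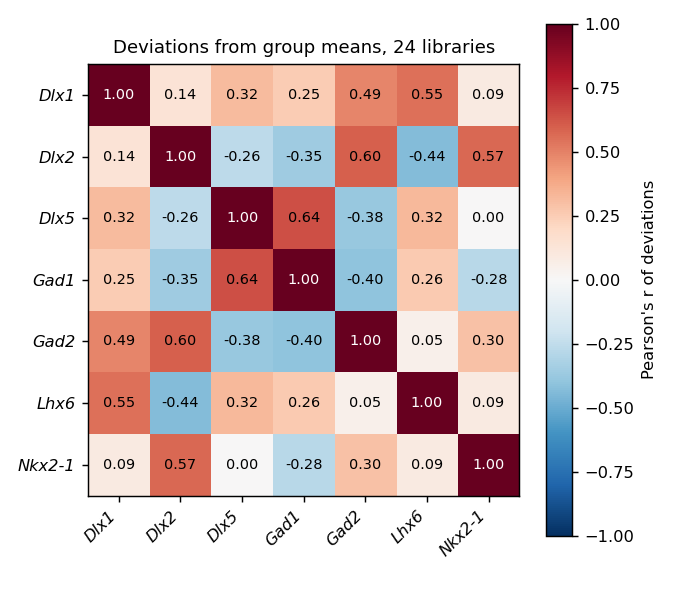
Pearson's r between the deviations of 7 genes from their group means (log2 of the normalized read count plus 1) over 24 libraries, with red above 0 and blue below 0. *Dlx5* and *Gad1* (0.64) and *Dlx2* and *Gad2* (0.60) are the reddest pairs, and *Gad1* and *Gad2* (-0.40) and *Dlx2* and *Lhx6* (-0.44) the bluest.

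The mean of the 7 genes' centred log2 values was compared with 13671 other genes over the 24 libraries. *Lhx6* (r = 0.86), *Gad2* (0.84), *Dlx1* (0.83) and *Dlx5* (0.83) followed that mean closely, *Gad1* less (0.75), *Dlx2* weakly (0.35) and *Nkx2-1* hardly (-0.11). Each of the 7 is itself part of the mean, with equal weight, which raises its r beside that of genes outside the set. The genes outside the set most like it were *Nlgn1* (0.89), *E330009J07Rik*, *Dlx6os1* (0.87), *Kcnh7*, *Runx1t1*, *Grik3*, *Gm13889*, *Apba2*, *Asb1* and *Khdrbs2* (0.86), and *Dlx6os1* had rank 3. After the group means were subtracted the most like were *Klhl2* (0.79), *Clic4*, *Gosr1*, *Gdap1*, *Asb1*, *Inpp5f*, *Shisal1*, *Mlh3*, *Scnm1* and *Pianp* (0.70), and *Asb1* was on both lists. Of the 7 genes, *Nkx2-1* had the highest r with that mean (0.80) and *Gad1* the lowest (0.13). The deviations were not scaled, so genes with a wide log2 spread move this mean most. *Nkx2-1* read only 1.01 to 17.9 at 24 hours, and the part of its counting error in this r and this list was not tested.

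*Gsx2*, the homeobox factor of lateral eminence progenitors, was listed at 0 in 14 of the 24 libraries and never exceeded 5.88, in the E14.5 cortex of control 3. Of the 23 libraries in which whole reads could be recovered, it passed the floor of 3 reads in 2, the E14.5 cortices of controls 3 (5 reads) and 5 (4 reads). All 12-hour cultures and all mutant cultures were at 0, where a count of 0 allows up to 2.15 to 4.72 normalized counts per library. No genotype, age or culture difference of *Gsx2* was detectable at this depth, and no fold change is given. Intervals of this kind cover counting error only.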

How the data were processed

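QuantSeq 3′ mRNA libraries of 24 samples were analysed. Per the labels and the study's methods, reads were aligned to GRCm38 by TopHat2 (2.0.10), which ran SAMtools (0.1.19) and Bowtie (1.0.0) (3 mismatches, up to 20 hits per read), counted by strand with HTSeq 0.6.1 on GENCODE vM20, and scaled with DESeq2. The deposited values are a signal of this kind, gene read counts that the authors divided by 1 size factor per library. Reads with several hits can leave near-identical copies of a gene uncertain. Whole reads were recovered in 23 libraries (464180 of 464180 values tested were whole within 0.01) and not in control D.

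Here log2(value + 1) was tested with limma 3.58.1 (R 4.3.3) for genes that averaged 10 or more over the libraries of a comparison, and p-values were adjusted over all of these genes (Benjamini-Hochberg, threshold 0.05). Fold changes on this scale understate those of low genes. Comparisons between conditions carried genotype as a term. Exact permutation tests were two-sided. edgeR 4.0.16 and DESeq2 1.42.0 were run on recovered reads where control D was not involved. The other alternatives were pseudocounts of 0.1 and 5, other filters, TMM and quantile scaling, 1 fit over all libraries, terms for the *Gm42418* share, sex and liver transcripts (the last added after the data were seen), blocks, and leaving out each library. The scripts were tested on simulated data: of 200 genes changed by a fold of 2 in the E14.5 genotype comparison, 129 were called. The simulation gave all genes 1 fixed dispersion (spread beyond counting error), and 10 genes passed in the real comparison. Its rate is therefore not the power for widely spread members such as *Dlx2*.

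The members and gene lists were chosen with earlier results of these data known. All members are named. In each related list up to 4 genes past the threshold with the smallest p are named, or up to 2 where none passed, with *Emx1*, *Pax6*, *Neurog2* and *Tbr1* where they move with a result. Some genes the rule names are not reported here. Cortex and culture libraries share an embryo number. Over 18 pairs their deviations correlated from -0.11 to 0.24 (median 0.14), and the number was taken as the same animal from the labels. Libraries held 4732781 to 11645213 reads on genes. Whether the embryos of a group are from separate litters is not given in the sources used here.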

Additional observations from a re-analysis of the deposited data

How the results depend on the processing

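Of 292 alternatives to the 13 counts of called members, 288 left the count within 1.5 times. Most of the 13 counts (genotype, interactions and culture time) were 0 at the start, so much of this tally is 0 that stayed 0. With the *Gm42418* share as a term, 1 member was called between 12-hour culture and cortex in place of 4, while the log2 fold changes of the lost calls were -0.34 for Dlx1, 0.40 for Lhx6 and 0.65 for Gad1. Between 12 and 24 hours 1 was called, in place of 0, under DESeq2, under a threshold of 0.1 and with the replicate block. That block, with embryos as pairs, changed Lhx6 at 12 hours (adjusted p = 0.06) and Dlx1 between culture times (limma, adjusted p = 0.035). Leaving out 1 library gave counts of 3 to 5 for 12-hour culture, 4 to 5 for 24-hour culture, 6 for age, and 0 for culture time, genotype and interactions.

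Of 1441 alternatives to 70 log2 fold changes, 1372 kept direction and call, 40 reversed, 26 lost a call and 3 gained one. The reversals follow, all of differences that had not passed. With the *Gm42418* term the log2 fold change was -0.00792 for Gad1 at E14.5, 0.00023 for Dlx1, 0.17 for Gad2 and 0.10 for Nkx2-1 by genotype at 24 hours, 0.0550 for Gad1 between culture times, and 0.25 for Nkx2-1 in the age interaction. With sex as a term it was 0.0469 for Dlx1 at E14.5, -0.18 for Gad1 and 0.0448 for Gad2 at 24 hours, and 0.0110 for Gad1 in the 12 cortices. With the liver term it was 0.0641 for Dlx5, 0.37 for Gad1 and 0.0199 for Nkx2-1 at E11.5, -0.0751 for Dlx5, -0.47 for Gad1 and -0.11 for Gad2 at E14.5, -1.90 for Dlx2 and -0.63 for Dlx5 at 24 hours, and -0.11 for Dlx5 and -0.80 for Gad1 in the age interaction. The cause was not tested.

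Leaving out 1 library moved the genotype difference at E14.5 from -0.0172 to 0.16 for Gad2, -0.00692 to 0.14 for Dlx5, -0.0948 to 0.44 for Gad1 and -0.29 to 0.0718 for Lhx6. At 12 hours it ran from -0.22 to 0.27 for Gad2 and -0.25 to 0.51 for Dlx2. At 24 hours it ran from -0.23 to 0.38 for Dlx2, -0.0295 to 0.23 for Dlx5, -0.18 to 0.25 for Gad1, -0.17 to 0.0056 for Gad2 and -0.91 to 0.27 for Nkx2-1, which fell under the minimum mean in some fits. Gad1 in the cortices ran from -0.27 to 0.0684, Dlx2 between 12-hour culture and cortex from -0.34 to 0.0678, and Nkx2-1 in the age interaction from -0.92 to 0.0733. At E11.5 no reversal occurred on leaving out a library for any tested member. The range was -0.78 to -0.63 for Gad2, -1.31 to -0.80 for Lhx6 and -0.77 to -0.44 for Dlx1. For Gad2 and Lhx6, whose groups did not overlap, a reversal was not possible. Gad1 came as near 0 as -0.0201 and Nkx2-1 as -0.0597. With 3 libraries a group, a fold of 2 was often missed in simulation, even with 1 fixed dispersion for all genes. Nkx2-1 in culture and Gsx2 throughout rest on few reads.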
